A study of Homo sapiens with 8 samples.

Results

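The TRIM genes encode the tripartite motif proteins, and here they are all genes in the files whose symbol is TRIM followed by a number. This rule, which uses no measured value, found 54 members among 15597 genes. Of these, 37 members reached 1 FPKM in at least 2 libraries and were tested, and 17 members did not. FPKM scale reads by the length of the gene and by the total of the library, so that levels can be set beside each other between genes. A typical TRIM protein carries a RING domain, which transfers ubiquitin to other proteins, then B-box and coiled-coil domains and a variable end that recognises the target. Many members are induced by interferon and act in innate defence, either by binding viral particles or by attaching ubiquitin to proteins of the RNA-sensing pathways, whereas a smaller branch reads chromatin and represses genes. Not every member is a ubiquitin ligase by its domains, since TRIM14, TRIM16, TRIM29, TRIM44 and TRIM66 lack the RING domain.

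The study used SUDHL-4, an established human lymphoma line of the germinal-centre subtype of diffuse large B-cell lymphoma, and asked how extra FDX1 alters the transcriptome under elesclomol. FDX1 is ferredoxin 1, a mitochondrial electron carrier, and elesclomol (ES) is a compound that ferries copper into cells. The groups were FDX1-overexpressing cells (FDX1-OE) in ES, control cells of wild-type genotype in ES, FDX1-OE cells in DMSO and control cells in DMSO, with 2 libraries each. ES was given at 5 nM for 48 h. The labels do not say how FDX1 was delivered, whether the FDX1-OE cells were 1 clone, or whether the control cells carried an empty vector.

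The 8 libraries held 33435438 to 35883528 reads. FDX1 had 82.5 and 84.8 FPKM in FDX1-OE cells in ES, 21.3 and 21.4 FPKM in control cells in ES, 72.4 and 69.9 FPKM in FDX1-OE cells in DMSO, and 25.6 and 22.2 FPKM in control cells in DMSO, so that the genotype labels held in every library. All 8 germinal-centre B-cell markers were present, with a mean of at least 29.2 FPKM each. Markers of T or NK cells (5 of 7 in the files) summed to 7.60 to 8.52 FPKM in FDX1-OE cells in ES, 7.09 to 7.41 FPKM in control cells in ES, 5.23 to 7.19 FPKM in FDX1-OE cells in DMSO, and 4.10 to 5.03 FPKM in control cells in DMSO. This order of the groups is that of several antiviral TRIM genes, and the part of these markers in those results was not tested. The sums rest mainly on 1 marker, since the highest marker averaged 6.34 FPKM over the 8 libraries and the lowest 0.00128 FPKM. At 0 in both libraries were 3 of the 5 markers in each control group and 1 in each FDX1-OE group. Myeloid markers (3 of 6 in the files) summed to 0.531 FPKM or less in any library. In bulk RNA, fewer cells that transcribe a gene and less of its RNA per cell cannot be told apart, and FPKM are shares of each library's RNA.

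TRIM28 stood far above the rest of the family, with a mean of 231 FPKM over the 8 libraries. It is the co-repressor that KRAB zinc-finger proteins recruit to silence transposable elements. TRIM22, TRIM26, TRIM25 and TRIM27 came next. A mean of 10 FPKM or more was reached by 13 members, whereas 20 members averaged under 1 FPKM. No member was at 0 in every library, though TRIM34, TRIM40, TRIM44 and TRIM48 had 1 read each over all 8 libraries.

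Elesclomol raised most tested members of the antiviral list given below in both genotypes. The chromatin members, apart from TRIM66, had no called change with elesclomol. In FDX1-OE cells 19 of the 37 tested members rose and 7 fell, against 37% and 19.2% of the 9805 genes tested that rose and fell. Among the members that rose in FDX1-OE cells, TRIM31, TRIM69, TRIM23 and TRIM61 passed the filter on low values only through ES libraries, so these counts describe the tested members and not the family. The share of tested members called in either direction was 70.3% in FDX1-OE cells, against 56.2% of all genes. In control cells 12 members rose and 3 fell, against 25.5% and 12.9% of all genes, and the share called was 40.5% of members, against 38.4% of all genes. The share called in control cells was thus close to the background. The median log2 change of the tested members was 0.19 in FDX1-OE cells, against 0.09 over all genes, and 0.12 in control cells, against 0.06 over all genes. Calls were made by limma at an adjusted p below 0.05 after Benjamini-Hochberg adjustment over all genes tested, and log2 changes are those of FPKM + 1, which understates the change of low genes. With relative-log scaling (RLE) of the libraries the counts in FDX1-OE cells were 15 members higher and 9 lower, against 27.6% of all genes higher and 27.6% lower.

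**Figure D1:**
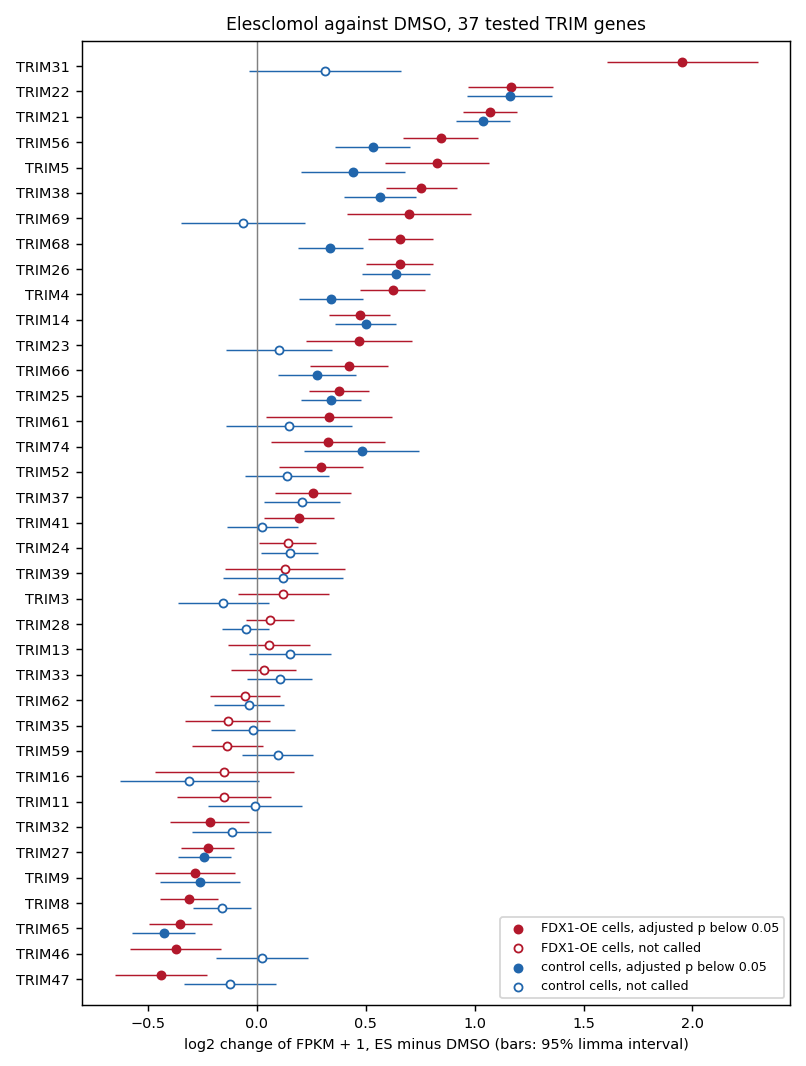
Log2 change of FPKM + 1 with ES, relative to DMSO, for the 37 tested TRIM genes, in FDX1-OE cells (red) and control cells (blue); points are limma estimates from 2 libraries a group, bars 95% intervals, and filled points have an adjusted p below 0.05. TRIM31 lies at 1.95 in FDX1-OE cells and at 0.31 in control cells, whereas TRIM22 and TRIM21 have almost the same change in both genotypes.

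The antiviral list held 12 members with a published role in innate defence, of which TRIM6 and TRIM34 had too few reads to test. It is not a complete list of such members. TRIM4, TRIM31 and TRIM8, which are described below with roles in immune signalling, were counted among the other members. Of the 10 tested, 9 rose and 1 fell in FDX1-OE cells with a median log2 change of 0.73, and 8 rose and 1 fell in control cells with a median of 0.52. Among the other 27 tested members, 10 rose and 6 fell in FDX1-OE cells with a median of 0.06, and 4 rose and 2 fell in control cells with a median of 0.10. These medians compare with 0.09 and 0.06 over all genes in FDX1-OE and control cells. Over all genes 37% rose and 19.2% fell in FDX1-OE cells, and 25.5% rose and 12.9% fell in control cells. TRIM69, counted here as a riser of the list in FDX1-OE cells, passed the filter only through the 2 FDX1-OE libraries in ES. TRIM31, TRIM23 and TRIM61 among the other members passed it only through ES libraries. The list was drawn up with earlier results of these data known, so its count is not independent evidence of a direction.

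TRIM22, an interferon-inducible restriction factor, had 77.8 and 81.2 FPKM in FDX1-OE cells in ES, 61.4 and 54.0 FPKM in control cells in ES, 31.6 and 38.5 FPKM in FDX1-OE cells in DMSO, and 25.2 and 25.2 FPKM in control cells in DMSO. The 4 groups did not overlap, and every ES library lay above every DMSO library. The log2 change with ES was 1.17 in FDX1-OE cells (SE 0.09, adjusted p = 3.13e-06) and 1.16 in control cells (SE 0.09, adjusted p = 1.12e-05), a fold of 2.24 in each. The interaction, the difference between the log2 change in FDX1-OE cells and that in control cells, was 0.00 on the log2 scale, with a 95% interval of -0.27 to 0.28.

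TRIM21, the cytosolic antibody receptor that sends antibody-coated viruses to the proteasome, had 27.9 and 28.0 FPKM in FDX1-OE cells in ES, 22.4 and 21.8 FPKM in control cells in ES, 12.6 and 13.0 FPKM in FDX1-OE cells in DMSO, and 10.1 and 10.3 FPKM in control cells in DMSO. The groups again kept the same order with no overlap, and replicate libraries lay close together. With ES the log2 change was 1.07 in FDX1-OE cells (SE 0.06, adjusted p = 3.76e-07) and 1.04 in control cells (SE 0.06, adjusted p = 1.79e-06). The interaction for TRIM21 was 0.03, with a 95% interval of -0.14 to 0.21. TRIM22 and TRIM21 were the only members called with at least a 2-fold rise on this scale in control cells, and TRIM31 joined them in FDX1-OE cells.

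TRIM26, which restrains interferon production by acting on IRF3, had 56.8 and 51.8 FPKM in FDX1-OE cells in ES, 54.5 and 49.0 FPKM in control cells in ES, 32.7 and 35.5 FPKM in FDX1-OE cells in DMSO, and 32.7 and 33.0 FPKM in control cells in DMSO. The 4 ES libraries lay well above the 4 DMSO libraries, and the genotypes overlapped within each treatment. Its log2 change with ES was 0.66 in FDX1-OE cells (adjusted p = 2.91e-05) and 0.64 in control cells (adjusted p = 1.17e-04). TRIM25, which ubiquitinates the RNA sensor RIG-I, had 43.8 and 41.0 FPKM in FDX1-OE cells in ES, 39.4 and 36.3 FPKM in control cells in ES, 31.6 and 33.2 FPKM in FDX1-OE cells in DMSO, and 29.3 and 30.02 FPKM in control cells in DMSO. The rise of TRIM25 was smaller, with a log2 change of 0.38 in FDX1-OE cells (adjusted p = 4.61e-04) and 0.34 in control cells (adjusted p = 0.00186).

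TRIM56, which acts in DNA and RNA sensing, had 14.9 and 13.3 FPKM in FDX1-OE cells in ES, 11.2 and 9.83 FPKM in control cells in ES, 7.31 and 7.49 FPKM in FDX1-OE cells in DMSO, and 6.83 and 7.07 FPKM in control cells in DMSO. The ES libraries did not overlap the DMSO libraries in either genotype, and the log2 change was 0.84 in FDX1-OE cells and 0.53 in control cells. TRIM38, a regulator of Toll-like receptor and DNA-sensing signals, rose by 0.76 in FDX1-OE cells and by 0.57 in control cells on the same scale. TRIM14, an adaptor of the mitochondrial antiviral protein MAVS, rose by 0.47 in FDX1-OE cells and by 0.50 in control cells. Adjusted p-values of these 3 genes were 1.23e-04 or below in FDX1-OE cells and 6.24e-04 or below in control cells.

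TRIM5, which binds the capsids of retroviruses, had 3.6 and 3.68 FPKM in FDX1-OE cells in ES, 2.23 and 2.16 FPKM in control cells in ES, 1.40 and 1.85 FPKM in FDX1-OE cells in DMSO, and 1.56 and 1.16 FPKM in control cells in DMSO. The ES libraries lay above the DMSO libraries in both genotypes, and the DMSO groups overlapped. Its log2 change with ES was 0.83 in FDX1-OE cells (adjusted p = 1.07e-04) and 0.44 in control cells (adjusted p = 0.00906). Without control replicate 2 in DMSO the call in control cells was lost, with an adjusted p of 0.0770. TRIM5 overlaps TRIM6, TRIM34 and their readthrough gene in the RefSeq annotation, and how the authors counted reads of overlapping genes, or used strand, is not given in the sources used here. TRIM14 overlaps NANS in the same way.

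TRIM65 was the exception in the list, since it fell in both genotypes. This ligase ubiquitinates the RNA sensor MDA5. It had 13.3 and 13.3 FPKM in FDX1-OE cells in ES, 13.9 and 12.7 FPKM in control cells in ES, 17.9 and 16.6 FPKM in FDX1-OE cells in DMSO, and 18.3 and 18.0 FPKM in control cells in DMSO. All 4 ES libraries were below all 4 DMSO libraries, and the log2 change was -0.35 in FDX1-OE cells (adjusted p = 0.00106) and -0.43 in control cells (adjusted p = 7.67e-04).

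**Figure D2:**
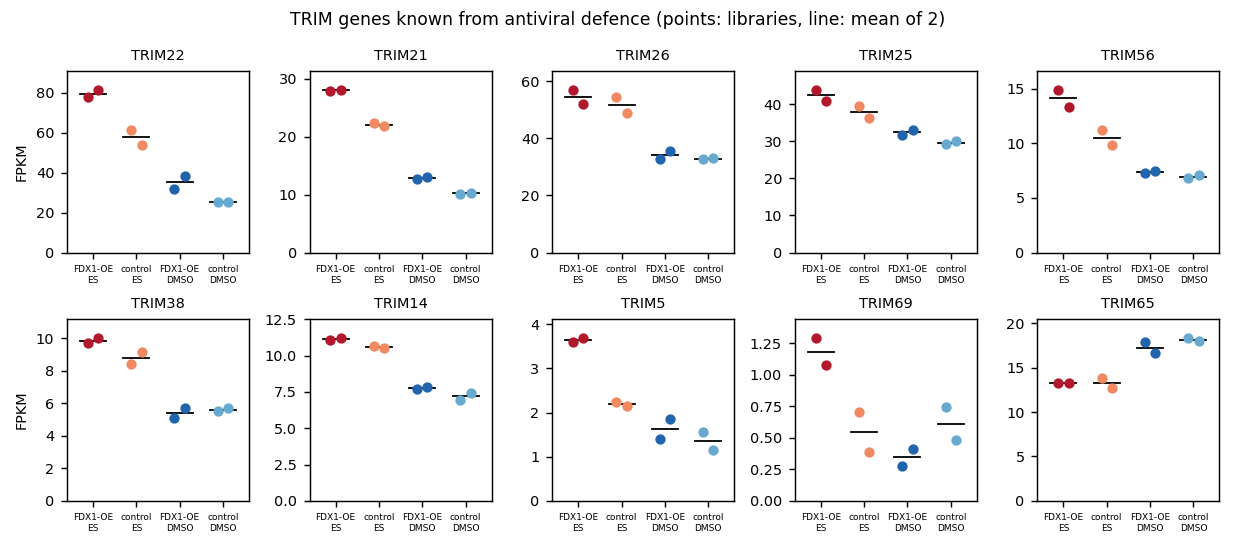
FPKM of the 10 tested TRIM genes of the antiviral list in each library, by group; points are libraries and lines the mean of 2, on linear axes that start at 0. In 8 panels both ES groups lie above both DMSO groups, TRIM65 shows the opposite order, and TRIM69 is high only in FDX1-OE cells in ES, at 1.29 and 1.07 FPKM.

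Promoter windows are shown for the 4 antiviral members with a called rise in both genotypes whose window held a core of the interferon-stimulated response element (ISRE). The letters searched were GAAANNGAAA on either strand, in windows of 300 bases, 250 before and 50 after the start of the gene, taken from RefSeq on GRCh38.p14. The windows are chr11:4393653-4393952, chr9:98119173-98119472, chr11:5685025-5685324 and chr6:30213357-30213656, each on the minus strand and printed in the direction of the gene, with the matches in capitals. Matches of TRIM14, TRIM5 and TRIM26 read TTTCNNTTTC because they lie on the opposite strand.
TRIM21: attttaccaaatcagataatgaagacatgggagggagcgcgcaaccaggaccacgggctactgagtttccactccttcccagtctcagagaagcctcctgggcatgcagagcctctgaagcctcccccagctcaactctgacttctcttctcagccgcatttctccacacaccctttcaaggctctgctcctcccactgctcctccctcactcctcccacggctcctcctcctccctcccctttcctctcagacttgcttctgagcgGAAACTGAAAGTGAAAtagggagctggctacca
TRIM14: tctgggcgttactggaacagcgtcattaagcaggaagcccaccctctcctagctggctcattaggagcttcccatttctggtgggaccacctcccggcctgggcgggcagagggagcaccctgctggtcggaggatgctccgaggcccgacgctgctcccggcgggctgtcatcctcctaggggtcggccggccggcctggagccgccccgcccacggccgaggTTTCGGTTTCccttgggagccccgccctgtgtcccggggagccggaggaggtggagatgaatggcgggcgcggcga
TRIM5: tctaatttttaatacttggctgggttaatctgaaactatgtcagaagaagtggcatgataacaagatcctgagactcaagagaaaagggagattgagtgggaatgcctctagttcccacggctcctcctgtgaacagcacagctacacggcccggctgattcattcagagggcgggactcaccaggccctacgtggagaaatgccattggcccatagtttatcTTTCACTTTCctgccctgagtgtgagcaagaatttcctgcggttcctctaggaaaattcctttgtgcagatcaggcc
TRIM26: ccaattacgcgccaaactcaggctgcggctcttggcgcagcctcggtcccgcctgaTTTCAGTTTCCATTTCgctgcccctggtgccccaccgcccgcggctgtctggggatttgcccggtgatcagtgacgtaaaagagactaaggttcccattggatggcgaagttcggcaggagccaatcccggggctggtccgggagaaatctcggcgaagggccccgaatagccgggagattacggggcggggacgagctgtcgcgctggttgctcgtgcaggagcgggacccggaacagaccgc

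TRIM21 held 2 overlapping matches that began 17 and 23 bases after the start of the gene. Those of TRIM14 and TRIM5 began at -26 and -27, counted upstream of it, and TRIM26 held 2 overlapping matches that began at -194 and -188. A RefSeq window was found for 42 of the 54 members, and 9 of these 42 windows (21.4%) held the core, against 389 of 12367 windows (3.145%) of genes in the files. No window was used here for TRIM22, TRIM28, TRIM27, TRIM8, TRIM24, TRIM11, TRIM35, TRIM4, TRIM13, TRIM55, TRIM29 and TRIM43. Among members that rose with ES in FDX1-OE cells 5 of 17 windows held it, the fifth being that of TRIM69. It was in 0 of 5 windows of members that fell, in 1 of 6 windows of members that were tested and not called (TRIM16), and in 3 of 14 windows of members that were not tested (TRIM2, TRIM34 and TRIM44). The core was therefore also present in members with almost no reads. The core of the gamma-activated site (GAS), TTCNNNGAA on either strand, was in 5 of 42 windows (11.9%), against 815 of 12367 windows (6.59%), and in 0 of the 17 windows of members that rose. A match describes letters in a window and is not a bound site.

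**Figure D3:**
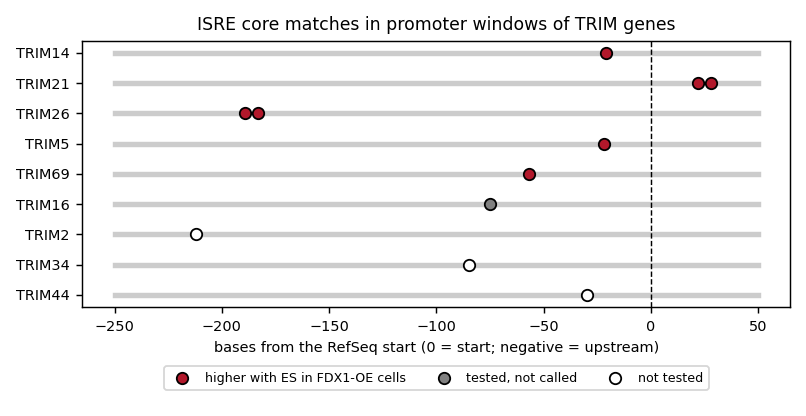
Positions of ISRE core matches in the 9 TRIM promoter windows that held one, in bases from the RefSeq start; grey bars are the 300-base windows and points the middle of each match, filled red where the gene rose with ES in FDX1-OE cells. Matches of 5 genes that rose begin between -194 and 23, and genes that were not called or not tested also held matches.

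Outside the antiviral list, TRIM68, TRIM4, TRIM66 and TRIM74 rose in both genotypes. TRIM68, known as a coactivator of the androgen receptor, had 9.45 and 9.13 FPKM in FDX1-OE cells in ES, 7.59 and 7.10 FPKM in control cells in ES, 5.45 and 5.58 FPKM in FDX1-OE cells in DMSO, and 5.45 and 5.75 FPKM in control cells in DMSO. The DMSO groups overlapped between genotypes, and the ES groups did not. Its log2 change was 0.66 in FDX1-OE cells (adjusted p = 2.30e-05) and 0.34 in control cells (adjusted p = 0.00338). TRIM4, another ligase of RIG-I, had 12.9 and 12.6 FPKM in FDX1-OE cells in ES, 10.5 and 11.03 FPKM in control cells in ES, 8.15 and 7.75 FPKM in FDX1-OE cells in DMSO, and 8.67 and 7.96 FPKM in control cells in DMSO. That is a log2 change of 0.62 in FDX1-OE cells and 0.34 in control cells. TRIM74, whose near-identical copy TRIM73 could share its reads, changed by 0.33 in FDX1-OE cells and 0.48 in control cells, and each of these calls was lost in some alternatives.

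A further 7 members rose with a call in FDX1-OE cells but not in control cells, and they were TRIM31, TRIM69, TRIM23, TRIM61, TRIM52, TRIM37 and TRIM41. How many of all genes rose with a call in FDX1-OE cells alone was not counted. A call in one genotype alone does not show that the genotypes differ, and the interaction was called for TRIM31 and TRIM69 alone among them. In control cells voom also called TRIM31 (adjusted p = 0.00569) and TRIM37 (adjusted p = 0.0240). The calls of TRIM61, TRIM52, TRIM37 and TRIM41 in FDX1-OE cells were each lost under some alternatives. TRIM41 had a log2 change of 0.10 with RLE scaling (adjusted p = 0.268) and lost its call on leaving out any 1 of the 4 FDX1-OE libraries, while TRIM61 had 0.14 without FDX1-OE replicate 1 in ES (adjusted p = 0.395). TRIM52 lost its call without FDX1-OE replicate 2 in ES (adjusted p = 0.10), and TRIM37 without FDX1-OE replicate 1 in ES (adjusted p = 0.132). TRIM23, which carries an ADP-ribosylation factor domain, had 1.20 and 1.49 FPKM in FDX1-OE cells in ES, 0.873 and 1.06 FPKM in control cells in ES, 0.588 and 0.797 FPKM in FDX1-OE cells in DMSO, and 0.917 and 0.743 FPKM in control cells in DMSO. Its log2 change was 0.47 in FDX1-OE cells (adjusted p = 0.00421), and its interaction of 0.37 had an adjusted p of 0.20. Of the 12 members that rose in both genotypes, 10 had the larger log2 change in FDX1-OE cells, the others being TRIM14 and TRIM74. None of the 12 had a called interaction, and the matching share over all genes was not counted. Over the 37 tested members the median interaction was 0.031, against 0.025 over all genes, and 19 members lay above the all-gene median.

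The largest falls were smaller than the largest rises, at -0.44 against 1.95 in FDX1-OE cells and -0.43 against 1.16 in control cells on the log2 scale. The fallers in both genotypes were TRIM65, TRIM27 and TRIM9. TRIM27, first found as a fusion partner of the RET kinase, had 29.7 and 28.7 FPKM in FDX1-OE cells in ES, 28.8 and 30.7 FPKM in control cells in ES, 34.1 and 34.6 FPKM in FDX1-OE cells in DMSO, and 35.6 and 35.1 FPKM in control cells in DMSO. The ES libraries were all below the DMSO libraries, with a log2 change of -0.23 in FDX1-OE cells (adjusted p = 0.00543) and -0.24 in control cells (adjusted p = 0.00669). Without control replicate 1 in ES the adjusted p in control cells was 0.0513. TRIM9, a neuronal ligase of axon guidance, had 4.08 and 4.04 FPKM in FDX1-OE cells in ES, 3.63 and 3.62 FPKM in control cells in ES, 5.54 and 4.78 FPKM in FDX1-OE cells in DMSO, and 4.30 and 4.78 FPKM in control cells in DMSO. Its log2 change was -0.28 in FDX1-OE cells and -0.26 in control cells, and both calls were lost on leaving out single libraries.

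In FDX1-OE cells TRIM47, TRIM46, TRIM8 and TRIM32 also fell. TRIM47 had 5.54 and 5.34 FPKM in FDX1-OE cells in ES, 6.61 and 6.31 FPKM in control cells in ES, 7.65 and 7.83 FPKM in FDX1-OE cells in DMSO, and 6.26 and 8.09 FPKM in control cells in DMSO. The control groups overlapped, while the FDX1-OE groups were far apart, with a log2 change of -0.44 (adjusted p = 0.00279). In control cells the log2 change of TRIM47 was -0.12, and it was -0.28 without control replicate 1 in DMSO. Its interaction was not called. TRIM8, a regulator of p53 and of NF-kB signals, had 26.3 and 27.5 FPKM in FDX1-OE cells in ES, 28.3 and 30.1 FPKM in control cells in ES, 33.1 and 34.2 FPKM in FDX1-OE cells in DMSO, and 31.6 and 33.9 FPKM in control cells in DMSO. Its log2 change was -0.31 in FDX1-OE cells (adjusted p = 0.00130). TRIM46, which bundles microtubules at the axon initial segment, changed by -0.37 and TRIM32, an NHL-repeat ligase mutated in a limb-girdle muscular dystrophy, by -0.22 in FDX1-OE cells. The call of TRIM46 was lost without FDX1-OE replicate 2 in ES (log2 change -0.25, adjusted p = 0.0659). That of TRIM32 was lost with no filter, with voom, with the replicate block and on leaving out any 1 of the 4 FDX1-OE libraries, with adjusted p-values of 0.0526 to 0.156. In control cells TRIM8 was called lower with RLE scaling (adjusted p = 0.0135) and with the replicate block (adjusted p = 0.0361).

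The chromatin members TRIM24, TRIM28 and TRIM33 were called in none of the 5 comparisons. TRIM28 had 242 and 234 FPKM in FDX1-OE cells in ES, 229 and 220 FPKM in control cells in ES, 235 and 222 FPKM in FDX1-OE cells in DMSO, and 233 and 232 FPKM in control cells in DMSO. The log2 change of TRIM28 with ES was 0.06 in FDX1-OE cells (95% interval -0.05 to 0.17) and -0.05 in control cells (95% interval -0.16 to 0.06). TRIM24, a bromodomain co-regulator of nuclear receptors, had 23.4 and 23.7 FPKM in FDX1-OE cells in ES, 21.3 and 22.3 FPKM in control cells in ES, 20.7 and 21.9 FPKM in FDX1-OE cells in DMSO, and 19.1 and 19.96 FPKM in control cells in DMSO. Its log2 change was 0.14 in FDX1-OE cells (adjusted p = 0.0606) and 0.15 in control cells (adjusted p = 0.0635), just outside the threshold. In FDX1-OE cells TRIM24 passed it with voom (adjusted p = 0.0468) and with no filter on low values (adjusted p = 0.0490). For TRIM33, a modulator of SMAD signalling, the change was 0.03 in FDX1-OE cells and 0.11 in control cells.

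TRIM66, the testis-enriched relative of this branch that lacks a RING, had 4.98 and 4.52 FPKM in FDX1-OE cells in ES, 3.90 and 3.54 FPKM in control cells in ES, 3.28 and 3.29 FPKM in FDX1-OE cells in DMSO, and 2.76 and 3.03 FPKM in control cells in DMSO. It rose by 0.42 in FDX1-OE cells (adjusted p = 0.00127) and by 0.28 in control cells (adjusted p = 0.0209) on the log2 scale. The call in control cells was lost without control replicate 1 in ES (adjusted p = 0.121) and without control replicate 1 in DMSO (adjusted p = 0.12). TRIM66 overlaps the highly expressed RPL27A in the RefSeq annotation.

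Besides these 3 chromatin members, 8 tested members were called in none of the 5 comparisons, and they were TRIM62, TRIM39, TRIM35, TRIM59, TRIM11, TRIM13, TRIM3 and TRIM16. The share of all genes called in none of the 5 comparisons was not counted. TRIM62 moved least, between 3.93 and 4.39 FPKM over the 8 libraries, with a largest log2 change of 0.05 in size and interval bounds between -0.22 and 0.18. For TRIM33, TRIM39, TRIM35, TRIM59, TRIM11, TRIM24, TRIM13 and TRIM3 the largest change was 0.12 to 0.19 in size, and the intervals reached no further than -0.36 and 0.40. TRIM16, which averaged 1.03 FPKM and has the close copy TRIM16L, was the least certain, with intervals that reached -0.63 and 0.41. With RLE scaling TRIM35 (log2 change -0.23, adjusted p = 0.0483) and TRIM59 (-0.22, adjusted p = 0.0257) were called lower with ES in FDX1-OE cells, and TRIM35 was also called without FDX1-OE replicate 1 in ES (-0.26, adjusted p = 0.0319).

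Without ES, extra FDX1 moved no member past the threshold. In FDX1-OE cells in DMSO limma called 0 of 37 members higher and 0 lower than in control cells, against 0.428% and 0.0816% of all genes, or 0.51% in either direction. At an unadjusted p below 0.05 there were 2 members, TRIM21 and TRIM22, both higher in FDX1-OE cells. The share of all genes at that threshold was not counted. TRIM21 had a log2 difference of 0.30 (SE 0.06, adjusted p = 0.0518) and TRIM22 one of 0.45 (SE 0.09, adjusted p = 0.0603). For both genes the 2 FDX1-OE libraries lay above the 2 control libraries, as given above. Voom on recovered reads called 1 member, TRIM22 (adjusted p = 0.00699), and RLE scaling called both TRIM21 (adjusted p = 0.0472) and TRIM22 (adjusted p = 0.0488). Without FDX1-OE replicate 1 in DMSO, which had 31.6 FPKM of TRIM22, limma called TRIM22 with an adjusted p of 0.00708.

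In ES 10 of 37 members were higher and 0 were lower in FDX1-OE than in control cells, against 13.6% and 7.78% of all genes, or 21.4% in either direction. Of these 10, TRIM31 and TRIM69 passed the filter only through the 2 FDX1-OE libraries in ES, the group in which they are high. The counts and order given here therefore describe the tested members and not the family. The median log2 difference of the tested members was 0.08, against 0.03 over all genes. TRIM31 had the largest log2 difference, 1.65 (adjusted p = 1.18e-04). Next came TRIM5 with 0.54 (adjusted p = 0.00687), TRIM69 with 0.50 (adjusted p = 0.0202), TRIM22 with 0.46 (adjusted p = 0.00557), TRIM56 with 0.39 (adjusted p = 0.00663) and TRIM21 with 0.33 (adjusted p = 0.00315). TRIM68, TRIM66, TRIM52 and TRIM4 differed by 0.30, 0.28, 0.27 and 0.23. The groups did not overlap for any of the 10. They also did not overlap for members without a call, such as TRIM28 and TRIM3 (higher) and TRIM47 and TRIM32 (lower). How many of all genes had no overlap was not counted. Of the antiviral list 5 of 10 were higher with a median of 0.24, and of the other 27 members 5 were higher with a median of 0.05. At an unadjusted p below 0.05 there were 13 members in all, and the share of all genes at that threshold was not counted. Fewer members, and fewer of all genes, were called higher without FDX1-OE replicate 1 in ES or without control replicate 2 in ES. Under every alternative TRIM31, TRIM5 and TRIM21 kept the call.

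**Figure D4:**
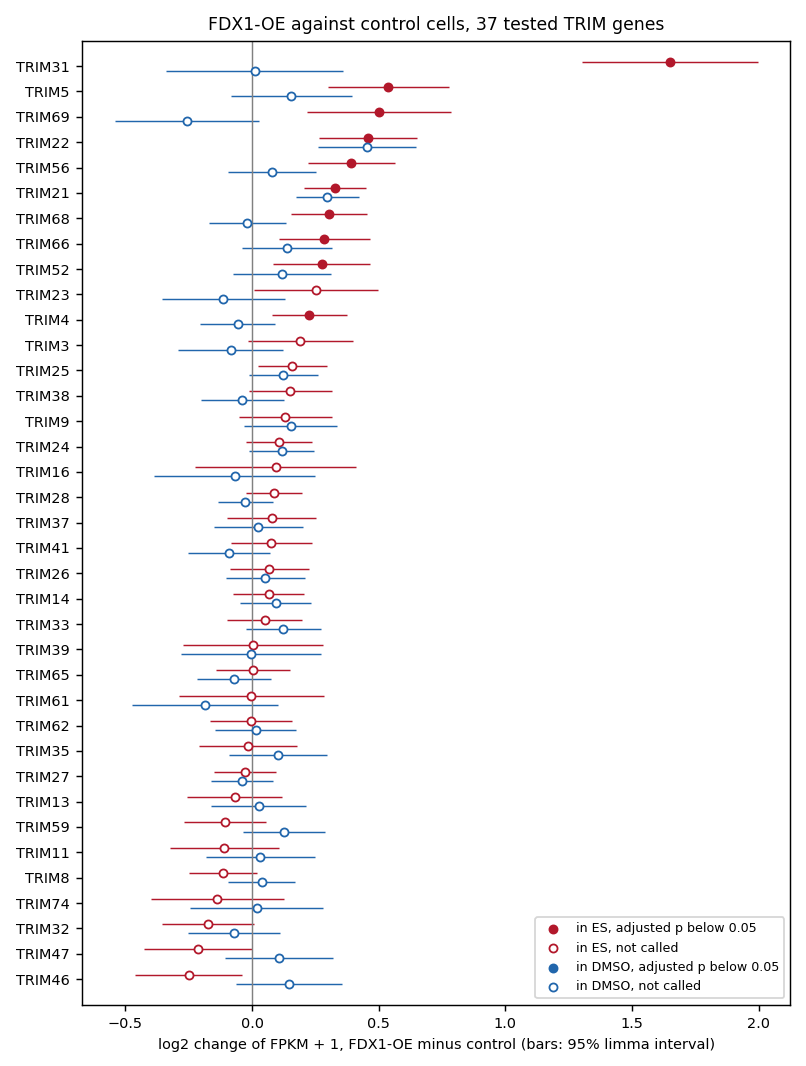
Log2 difference of FPKM + 1 between FDX1-OE and control cells for the 37 tested TRIM genes, in ES (red) and in DMSO (blue); points are limma estimates from 2 libraries a group, bars 95% intervals, and filled points have an adjusted p below 0.05. In ES 10 genes are called, led by TRIM31 at 1.65, and in DMSO none is called although TRIM22 and TRIM21 lie at 0.45 and 0.30.

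The interaction was called for 2 of the 37 tested members (5.41%), TRIM31 and TRIM69, both with the larger ES response in FDX1-OE cells. Both passed the filter on low values only through the 2 FDX1-OE libraries in ES, so the members tested were selected by the group in which these genes are high, and with no filter neither was called. No member was called with the smaller one. Over all genes 3.25% were called with a larger and 1.05% with a smaller response, 4.3% in all. That is near the share of the members. An unadjusted p below 0.05 was reached by 10 members, and the share of all genes at that threshold was not counted. TRIM31, which promotes the aggregation of MAVS, had 2.80 and 3.0 FPKM in FDX1-OE cells in ES, 0.524 and 0.0144 FPKM in control cells in ES, 0.0138 and 0 FPKM in FDX1-OE cells in DMSO, and 0 and 0 FPKM in control cells in DMSO. In reads that is 200 and 217 in FDX1-OE cells in ES, 36 and 1 in control cells in ES, 1 and 0 in FDX1-OE cells in DMSO, and 0 and 0 in control cells in DMSO. The gene was thus almost silent until ES was given, and the 2 control libraries in ES were far apart from each other.

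Pooled over libraries, the depth-scaled ratio of TRIM31 reads in FDX1-OE cells in ES to those in control cells in ES was 10.9, with an exact 95% interval of 7.74 to 15.6 that covers counting error only. In control cells ES gave at least 12.9-fold more reads than DMSO, with the DMSO group set to 3 reads, and 36 of the 37 reads came from 1 library. In FDX1-OE cells the ratio of ES to DMSO rests on 1 read in DMSO and was 409, with an interval of 73.0 to 16181. The limma log2 change with ES was 1.95 in FDX1-OE cells (SE 0.16, adjusted p = 4.76e-06) and 0.31 in control cells (SE 0.16, adjusted p = 0.138). In control cells TRIM31 was called higher with voom (log2 change 3.95, adjusted p = 0.00569) and without control replicate 2 in ES (0.61, adjusted p = 0.00432), the library with 1 read. The interaction was 1.64 (SE 0.22, adjusted p = 0.00472). The interaction was lost with a pseudocount of 0.1 (adjusted p = 0.0710), with no filter (0.0557) and with voom (0.0815).

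Epithelial or stromal markers, 7 of 7 in the files, summed to 0.574 to 1.07 FPKM in FDX1-OE cells in ES, 0.146 to 0.214 FPKM in control cells in ES, 0.00975 to 0.0568 FPKM in FDX1-OE cells in DMSO, and 0.0144 to 0.0147 FPKM in control cells in DMSO. The order of the ES groups is that of TRIM31, and none of the 7 markers was at 0 in FDX1-OE cells in ES, against 4, 4 and 5 markers in the other groups. The part of these markers in the TRIM31 result was not tested.

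TRIM69, an interferon-stimulated inhibitor of vesicular stomatitis virus, had 1.29 and 1.07 FPKM in FDX1-OE cells in ES, 0.702 and 0.389 FPKM in control cells in ES, 0.277 and 0.412 FPKM in FDX1-OE cells in DMSO, and 0.743 and 0.480 FPKM in control cells in DMSO. Those values rest on 17 to 78 reads a library, and the 2 control groups overlapped. The log2 change with ES was 0.70 in FDX1-OE cells (SE 0.13, adjusted p = 9.94e-04) and -0.06 in control cells (SE 0.13, adjusted p = 0.721). The interaction was 0.76 (SE 0.18, adjusted p = 0.0449). This call was lost with a pseudocount of 0.1, with no filter and with voom, and on leaving out any library other than control replicate 1 in ES, with adjusted p-values of 0.0527 to 0.150.

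The 17 members below the filter included several whose few reads came mainly from ES libraries. With no filter on low values, 37.3% of all 15597 genes were called in FDX1-OE cells and 20% in control cells, in either direction. ES was called higher than DMSO in FDX1-OE cells for 4 of the 17 members and for 4147 of the 15597 genes. In control cells it was called higher for 3 of the 17 members and for 2144 of the 15597 genes. The members were TRIM54, TRIM55, TRIM36 and TRIM2 in FDX1-OE cells, and TRIM29, TRIM72 and TRIM2 in control cells. TRIM54, TRIM55 and TRIM63 are the muscle RING-finger proteins of the sarcomere. TRIM54 had 46 and 57 reads in FDX1-OE cells in ES, 21 and 11 in control cells in ES, 11 and 8 in FDX1-OE cells in DMSO, and 5 and 2 in control cells in DMSO. TRIM55 had 50 and 80 reads in FDX1-OE cells in ES, 10 and 16 in control cells in ES, 0 and 2 in FDX1-OE cells in DMSO, and 1 and 9 in control cells in DMSO.

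Both genes were highest in FDX1-OE cells in ES, where their libraries lay above all others. TRIM54 had a depth-scaled ratio of ES to DMSO of 5.31 (exact 95% interval 3.24 to 9.18) in FDX1-OE cells and of 4.79 (2.08 to 12.8) in control cells. For TRIM55 that ratio was 63.7 (17.3 to 532) in FDX1-OE cells, on 2 reads in DMSO, and 2.72 (1.27 to 6.33) in control cells. TRIM63, the ligase of muscle atrophy, had 7 and 30 reads in FDX1-OE cells in ES, 13 and 14 in control cells in ES, 3 and 1 in FDX1-OE cells in DMSO, and 4 and 2 in control cells in DMSO, and it was not called. TRIM54 overlaps UCN in the RefSeq annotation.

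TRIM29 and TRIM72 had fewer reads in FDX1-OE than in control cells in ES, a difference that passed the threshold for TRIM29 alone. TRIM29, a RING-less member known from squamous epithelia, had 8 and 11 reads in FDX1-OE cells in ES, 23 and 33 in control cells in ES, 1 and 2 in FDX1-OE cells in DMSO, and 6 and 1 in control cells in DMSO. TRIM72, a membrane-repair protein of muscle that overlaps PYDC1, had 6 and 5 reads in FDX1-OE cells in ES, 20 and 11 in control cells in ES, 0 and 1 in FDX1-OE cells in DMSO, and 1 and 0 in control cells in DMSO. With no filter, FDX1-OE cells in ES were called lower than control cells in ES for TRIM29 (log2 difference -0.21, adjusted p = 0.0278), not for TRIM72 (-0.14, adjusted p = 0.0713), and higher for TRIM54 (0.56, adjusted p = 0.0163) and TRIM55 (0.39, adjusted p = 0.0229), where 11.2% of all genes were called. TRIM7 had 9 and 19 reads in FDX1-OE cells in ES, 10 and 19 in control cells in ES, 2 and 0 in FDX1-OE cells in DMSO, and 10 and 20 in control cells in DMSO. TRIM7 thus had few reads in FDX1-OE cells in DMSO alone. With no filter, limma did not call its difference from control cells in DMSO (log2 difference -0.10, adjusted p = 0.706). The remaining untested members TRIM6, TRIM34, TRIM40, TRIM43, TRIM44, TRIM48, TRIM49 and TRIM67 had 1 to 11 reads each over all libraries, and changes in them were not detectable at this depth.

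**Figure D5:**
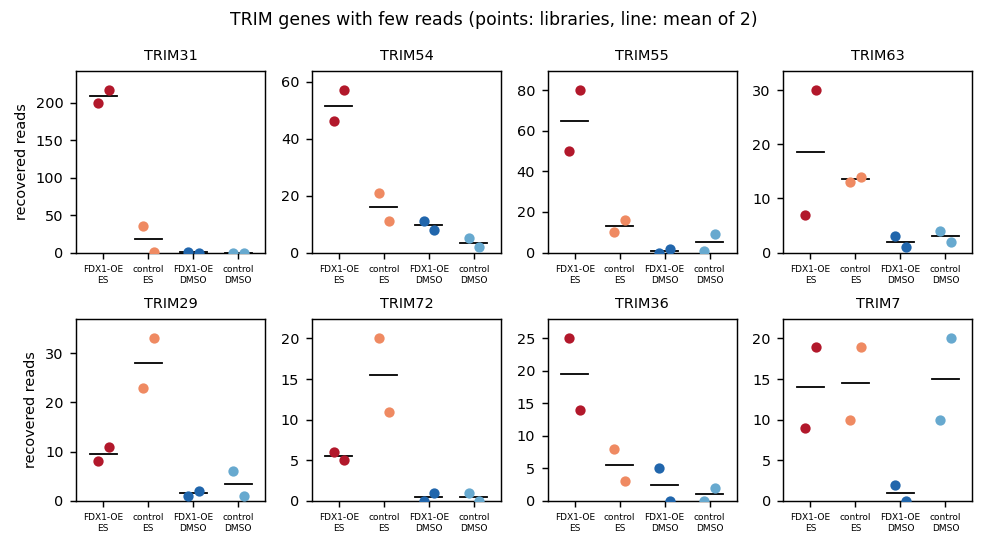
Recovered reads per library, by group, of 8 TRIM genes with few reads; points are libraries, lines the mean of 2, on linear axes that start at 0. TRIM31, TRIM54 and TRIM55 are highest in FDX1-OE cells in ES, TRIM29 and TRIM72 are highest in control cells in ES, and TRIM7 is low in FDX1-OE cells in DMSO.

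Among the TRIM genes that carry other names, PML moved most. PML, the organiser of nuclear bodies, had 27.8 and 26.6 FPKM in FDX1-OE cells in ES, 20.5 and 16.9 FPKM in control cells in ES, 8.88 and 10.5 FPKM in FDX1-OE cells in DMSO, and 6.40 and 6.88 FPKM in control cells in DMSO. Its groups had the order of TRIM22 and TRIM21, with a log2 change with ES of 1.40 in FDX1-OE cells (adjusted p = 1.99e-06) and 1.36 in control cells (adjusted p = 7.22e-06).

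A list of E1 and E2 enzymes, which activate and carry ubiquitin or a ubiquitin-like protein, was tested. Of 31 tested ubiquitin E1 and E2 enzymes, 7 rose and 10 fell with ES in FDX1-OE cells, and 7 rose and 6 fell in control cells. The share called was 54.8% in FDX1-OE cells, against 56.2% of all genes, and 41.9% in control cells, against 38.4% of all genes, so it was close to the background in both. UBA7 and UBE2L6, the pair that attaches the ubiquitin-like interferon product ISG15, stood out. UBA7 had 16.6 and 15.2 FPKM in FDX1-OE cells in ES, 7.91 and 6.61 FPKM in control cells in ES, 1.18 and 1.46 FPKM in FDX1-OE cells in DMSO, and 0.588 and 0.722 FPKM in control cells in DMSO. That is a log2 change of 2.87 in FDX1-OE cells and 2.32 in control cells. UBE2L6 changed by 1.75 in FDX1-OE cells and by 1.53 in control cells, and UBE2D4 by 0.58 in FDX1-OE cells and by 0.61 in control cells. In ES, FDX1-OE cells were higher than control cells by 1.04 for UBA7 (adjusted p = 1.33e-04) and by 1.02 for UBE2L6 (adjusted p = 0.00298).

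Of the 18 genes listed as silencing partners of TRIM28, all tested, 4 rose and 6 fell with ES in FDX1-OE cells, and 2 rose and 3 fell in control cells. The share called was 55.6% in FDX1-OE cells, against 56.2% of all genes, and 27.8% in control cells, against 38.4% of all genes. CHD4, a remodeller of the NuRD complex, had the largest change, with a log2 change of -0.47 in FDX1-OE cells and -0.33 in control cells. The RNF genes, another large group named for the RING domain, served as a comparison. Of 50 tested RNF genes 22 rose and 4 fell with ES in FDX1-OE cells, 52% in all with a median of 0.14, against 70.3% and a median of 0.19 for the TRIM genes. In control cells 14 rose and 4 fell, 36% with a median of 0.11, against 40.5% and a median of 0.12 for the TRIM genes. Over all genes 56.2% were called in FDX1-OE cells and 38.4% in control cells, so the RNF shares were near the background. The difference between the families was not tested. RNF213, an interferon-inducible ligase, led them with a log2 change of 1.9 in FDX1-OE cells and 2.17 in control cells, and it was the only RNF gene called in DMSO, 1.07 higher in FDX1-OE than in control cells (adjusted p = 0.00685).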

How the data were processed

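Per the labels, RNA from 8 libraries in 4 groups of 2 was sequenced. The deposited values are FPKM, made by the authors for 15597 genes; their unit was taken from how the values behave. The submitters' processing notes name HISAT2, HTSeq, R 3.2.0 and hg19, with no roles. Steps of the FPKM values gave whole reads, within 0.02 read, for 99.97% of genes, and these reads gave the library totals. For a 1-kilobase gene, 3 reads corresponded to 0.0836 to 0.0897 FPKM. Intervals and floors of 3 reads cover counting error only.

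The 9805 genes that reached 1 FPKM in 2 or more libraries were tested on log2(FPKM + 1) by limma 3.58.1 under R 4.3.3, with 4 group means fitted to all 8 libraries, empirical Bayes moderation with a mean trend, and two-sided p-values adjusted by Benjamini-Hochberg over all genes tested, in 5 comparisons. Calls needed an adjusted p below 0.05. The labels do not say that replicates were separate cultures, so p-values reflect only how far these libraries spread. An exact permutation test of 2 against 2 cannot go below 0.33 and was not used. Alternatives were a pseudocount of 0.1, no filter, RLE scaling, a fit to the libraries of each comparison alone, a replicate block, voom on the recovered reads, and leaving out each library. The procedure was also run on simulated counts with a fixed spread and fewer changed genes than were called with ES. That setting differs from these data, so no conclusion is drawn from it.

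The members, gene lists and the rule for named genes were chosen with earlier results of these data known. The rule named up to 8 called members in each direction and comparison, those called in the interaction, up to 10 flat members, the antiviral and chromatin lists, the 5 highest members, and up to 3 genes of each accompanying list. TRIM4, TRIM16, TRIM23, TRIM37, TRIM41, TRIM52, TRIM61 and the members below the filter were added after their values were seen. RefSeq promoter windows (GRCh38.p14) were matched by symbol.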

Additional observations from a re-analysis of the deposited data

Results flagged for a closer look

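For 2 members the interaction of ES and genotype passed the threshold with limma. Both passed the filter on low values only through the FDX1-OE libraries in ES, and both calls were lost with no filter (adjusted p = 0.0557 for TRIM31 and 0.12 for TRIM69), with a pseudocount of 0.1 and with voom. TRIM31 had an interaction of 1.64 on the log2 scale, with 200 and 217 reads in FDX1-OE cells in ES, 36 and 1 in control cells in ES, 1 and 0 in FDX1-OE cells in DMSO, and 0 and 0 in control cells in DMSO. TRIM69 had an interaction of 0.76 on the log2 scale, with 78 and 66 reads in FDX1-OE cells in ES, 41 and 23 in control cells in ES, 17 and 24 in FDX1-OE cells in DMSO, and 45 and 30 in control cells in DMSO.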

How the results depend on the processing

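No value of a called member changed sign under any alternative. How many of all genes kept a call under every alternative was not counted. The call was kept under every alternative by 14 of 19 risers and 4 of 7 fallers with ES in FDX1-OE cells, by 9 of 12 risers and 1 of 3 fallers (TRIM65) with ES in control cells, by 3 of 10 members higher in FDX1-OE cells in ES, and by 0 of 2 in the interaction. FDX1-OE against control cells in DMSO gave 0 members higher with limma, 1 with a pseudocount of 0.1, 2 with RLE scaling, 1 with a fit to its 4 libraries alone and 1 with voom. Of all genes 42, 55, 47, 54 and 70 were called higher in the same order, of 9805 tested and 9802 with voom. In ES, no filter gave 1 member lower (TRIM29), against 0. Of all genes 543 of 15597 were called lower there with no filter, against 763 of 9805 with it. The interaction gave 2 members, against 0 with a pseudocount of 0.1, 0 with no filter and 0 with voom. Over all genes it was called for 422 of 9805, against 222 of 9805, 176 of 15597 and 642 of 9802 in the same order. The cause of these differences was not tested, except that without the filter more genes are tested. Leaving out 1 library, as described next, also left fewer of all genes called with ES in either genotype and between genotypes in ES.

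Leaving out 1 library at a time gave 15 to 17 members higher and 4 to 6 lower with ES in FDX1-OE cells, where 4 were lower without FDX1-OE replicate 2 in ES. In control cells it gave 10 to 13 higher and 1 to 4 lower, with 1 lower without control replicate 1 in ES. For FDX1-OE against control cells it gave 0 to 1 higher and 0 lower in DMSO, and 3 to 8 higher and 0 to 1 lower in ES, the 1 being TRIM46 without FDX1-OE replicate 1 in ES. The interaction gave 1 to 2 higher and 0 lower.

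Deviations of libraries that share a replicate number correlated at -0.18 to 0.18 over the 6 pairs of groups, so the numbers are not taken to pair the libraries. With the replicate block ES gave 19 higher and 6 lower in FDX1-OE cells, 12 higher and 4 lower in control cells, FDX1-OE cells 0 and 0 in DMSO and 9 and 0 in ES, and the interaction 2 and 0. Over all genes those counts were 3666 and 1909, 2508 and 1296, 45 and 11, 1365 and 808, and 389 and 137. Members with few reads are limited by depth.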
